A study of Mus musculus with 8 samples.

Results

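The enzymes that write, copy and remove DNA methylation were followed as transcripts in bulk RNA-seq of mouse germ cells made in culture and taken from the embryo. The set was chosen by name and held 9 genes: the DNA methyltransferases *Dnmt1*, *Dnmt3a* and *Dnmt3b*, the catalytically inactive *Dnmt3l*, the *Dnmt1* recruiter *Uhrf1*, the 5-methylcytosine dioxygenases *Tet1*, *Tet2* and *Tet3*, and the glycosylase *Tdg*. Of these, 8 were found among the 21950 genes of the count table by Entrez identifier, and *Tet3* is not analysed here. Primordial germ cell-like cells at day 6 of induction (d6PGCLCs, 4 libraries) came from a single female induced pluripotent line, BVSC-iPSC, which carries the Blimp1-Venus and Stella-ECFP reporters and was made from adult tail tip fibroblasts. They were passed through epiblast-like cells (EpiLCs), kept in medium with BMP4, SCF, LIF and EGF, and collected on day 8 of culture. The paper's protocol for the sort at this step took either double reporter-positive cells or cells with both SSEA1 and integrin β3. Primordial germ cells (E12.5 PGCs, 4 libraries) were sorted as SSEA1 and integrin β3 double-positive cells from pooled female gonads of C57BL/6J embryos at E12.5. The libraries of each group were pools of cells from independent experiments. The paper, citing earlier transcriptome work, likens d6PGCLCs to migrating PGCs, a stage before that of the E12.5 gonad. Cell line against strain, culture against gonad and stage followed the same division as cell type, and the sort may have done so too. The shares of all of these in any difference cannot be told apart.

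DNMT1, brought to newly replicated DNA by UHRF1, copies CpG methylation to the daughter strand, whereas DNMT3A and DNMT3B, helped by DNMT3L, place methylation on unmethylated DNA. TET enzymes oxidise 5-methylcytosine, and the oxidised bases are lost through replication or are cut out by TDG and replaced by base excision repair. Mouse PGCs are known for a genome-wide loss of methylation on the way to the gonad, with de novo methylation put back in the female germline only after birth, in growing oocytes. The comparison asks how far the transcripts of this machinery in d6PGCLCs resembled those in gonadal PGCs.

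Each library held between 7991437 and 12024841 counts, and 3 counts corresponded to 0.249 to 0.383 CPM, the count scaled by the normalized library size. Germ cell markers summed to between 5019 and 5810 CPM in d6PGCLC libraries and to between 3278 and 3713 CPM in E12.5 PGC libraries, with none of the 10 at 0 in either group. By the calls defined below, 7 were higher in d6PGCLCs, 1 (*Dnd1*) lower and 2 not called, beside 28.1% higher and 25.6% lower among genes averaging at least 1 CPM. *Pou5f1* was the largest part, at 1632 against 980 CPM. *Prdm1* (Blimp1, 444 against 192 CPM) and *Dppa3* (Stella, 691 against 384 CPM) are the reporter genes. The sum does not rank the groups by purity. Gonadal somatic markers were low, at 0.664 to 1.45 CPM summed over 9 genes in d6PGCLCs and 2.80 to 7.58 CPM in E12.5 PGCs, with *Tcf21* at 0 in all d6PGCLC libraries. The 4 blood markers reached at most 0.102 CPM in a d6PGCLC library and 5.47 CPM in an E12.5 PGC library. The 4 EpiLC markers summed to 6.06 to 7.91 CPM and 11.5 to 17.99 CPM, and the 5 endothelial markers, mostly *Cdh5* and *Tek*, to 20.0 to 34.5 CPM and 14.5 to 25.04 CPM. E12.5 PGC replicate 4 carried 99 counts on Y-linked genes, against 0 in the other 7 libraries, although the group is labelled female. Leaving it out kept the direction of the 8 enzymes, and among these enzymes it changed a call only for *Dnmt3l*.

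The *Dnmt3* genes were the enzymes whose libraries did not overlap between the groups, and the DNA just upstream of their transcripts is shown here because their transcripts moved in opposite directions. The windows are the 250 bases before an annotated start in RefSeq (GRCm38.p6), plus strand, written 5′ to 3′ in lower case with each CpG (CG) in capitals. *Dnmt3a* has 3 annotated starts in this table. Shown are the first of these, an upstream start (chr12:3806730-3806979), and the internal start of a shorter form (chr12:3891494-3891743). The extent given below for the gene begins earlier, at base 3801559, a position without a window in this set. Another upstream window (chr12:3806910-3807159, 40 CG) overlaps the first and is not printed, and the transcript nearest in length to the one counted starts at base 3807030, between these upstream starts. The *Dnmt3b* window is chr2:153649199-153649448. *Dnmt3l* has several annotated starts, and the window shown (chr10:78055085-78055334) lies before the start of the transcript whose length was nearest to the one counted.

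Dnmt3a first upstream start: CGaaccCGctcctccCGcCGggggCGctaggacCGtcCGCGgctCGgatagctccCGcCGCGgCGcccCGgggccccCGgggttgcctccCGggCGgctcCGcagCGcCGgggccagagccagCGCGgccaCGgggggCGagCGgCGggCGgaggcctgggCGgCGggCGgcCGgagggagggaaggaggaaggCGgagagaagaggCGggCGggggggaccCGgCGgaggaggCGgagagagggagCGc

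Dnmt3a internal start: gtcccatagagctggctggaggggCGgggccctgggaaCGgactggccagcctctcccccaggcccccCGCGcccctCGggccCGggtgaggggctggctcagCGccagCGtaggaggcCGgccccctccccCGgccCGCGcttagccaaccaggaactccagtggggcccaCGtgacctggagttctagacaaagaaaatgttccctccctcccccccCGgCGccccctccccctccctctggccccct

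Dnmt3b: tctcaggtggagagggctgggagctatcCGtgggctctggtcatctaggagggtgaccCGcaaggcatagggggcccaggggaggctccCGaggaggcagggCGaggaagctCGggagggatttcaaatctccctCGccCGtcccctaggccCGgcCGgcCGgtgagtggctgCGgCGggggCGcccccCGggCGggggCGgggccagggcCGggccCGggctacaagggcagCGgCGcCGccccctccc

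Dnmt3l: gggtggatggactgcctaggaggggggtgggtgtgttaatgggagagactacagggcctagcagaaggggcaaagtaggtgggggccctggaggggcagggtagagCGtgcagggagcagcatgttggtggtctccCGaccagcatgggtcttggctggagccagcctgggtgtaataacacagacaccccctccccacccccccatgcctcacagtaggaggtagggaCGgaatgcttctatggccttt

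The first upstream *Dnmt3a* window held 38 CG dinucleotides, a number reached by 1.88% of the 32851 annotated windows of this length, and 82.4% of its bases were G or C. The internal *Dnmt3a* window held 15 CG (reached by 27.3% of windows), *Dnmt3b* 21 CG (16.3%) and *Dnmt3l* 3 CG (71.0%), where the median window held 6. The letters GGGCGG, the core of a GC box, were searched on both strands and occurred 5 times before the first *Dnmt3a* start, 3 times before *Dnmt3b*, 1 time before the internal *Dnmt3a* start and not before this *Dnmt3l* start, while 32.7% of all windows held at least 1 copy. CCAAT (33.8% of windows) and TATAAA (12.4%) were in none of the 4 windows shown. Of the *Dnmt3l* windows not printed, that at chr10:78049592-78049841 held 2 copies of GGGCGG and the other held none. These matches describe the letters of the windows only. Counts were made over the exons of 1 isoform per gene, so that reads from the full-length and the shorter *Dnmt3a* transcripts in shared exons cannot be told apart.

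Calls were made with edgeR's quasi-likelihood test over all 21950 genes, and a gene counted as called when its p, adjusted by the Benjamini-Hochberg method, was 0.05 or less. Among the 8 enzymes 3 were called, with *Dnmt3b* and *Dnmt3l* higher and *Dnmt3a* lower in d6PGCLCs, where 31.5% of all genes tested were called (16.1% higher, 15.4% lower). Of the 7 enzymes with a mean of at least 1 CPM, 2 were called, against 53.6% of the 11487 genes at such a level (28.1% higher, 25.6% lower). The first share was near its background and the second lay below it. A change of 1 or more on the log2 scale, in either direction, was reached by *Dnmt3a* and *Dnmt3l* (14.7% of all genes). A change of 2 or more was reached by *Dnmt3l* alone (6.62% of all genes). *Dnmt3l* averaged below 1 CPM. Of the other 7 enzymes only *Dnmt3a* reached 1 and none reached 2, beside 21.6% and 7.24% of genes with a mean of 1 CPM or more. The libraries of the groups did not overlap for 3 of 8 enzymes, beside 30.2% of all genes. Without *Dnmt3l* this held for 2 of 7, beside 51.1% of genes with a mean of 1 CPM or more. The median log2 fold change (d6PGCLC over E12.5 PGC) was 0.08 over the 8 enzymes, beside 0.00 over all genes and 0.01 over genes with a mean of at least 1 CPM.

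**Figure D1:**
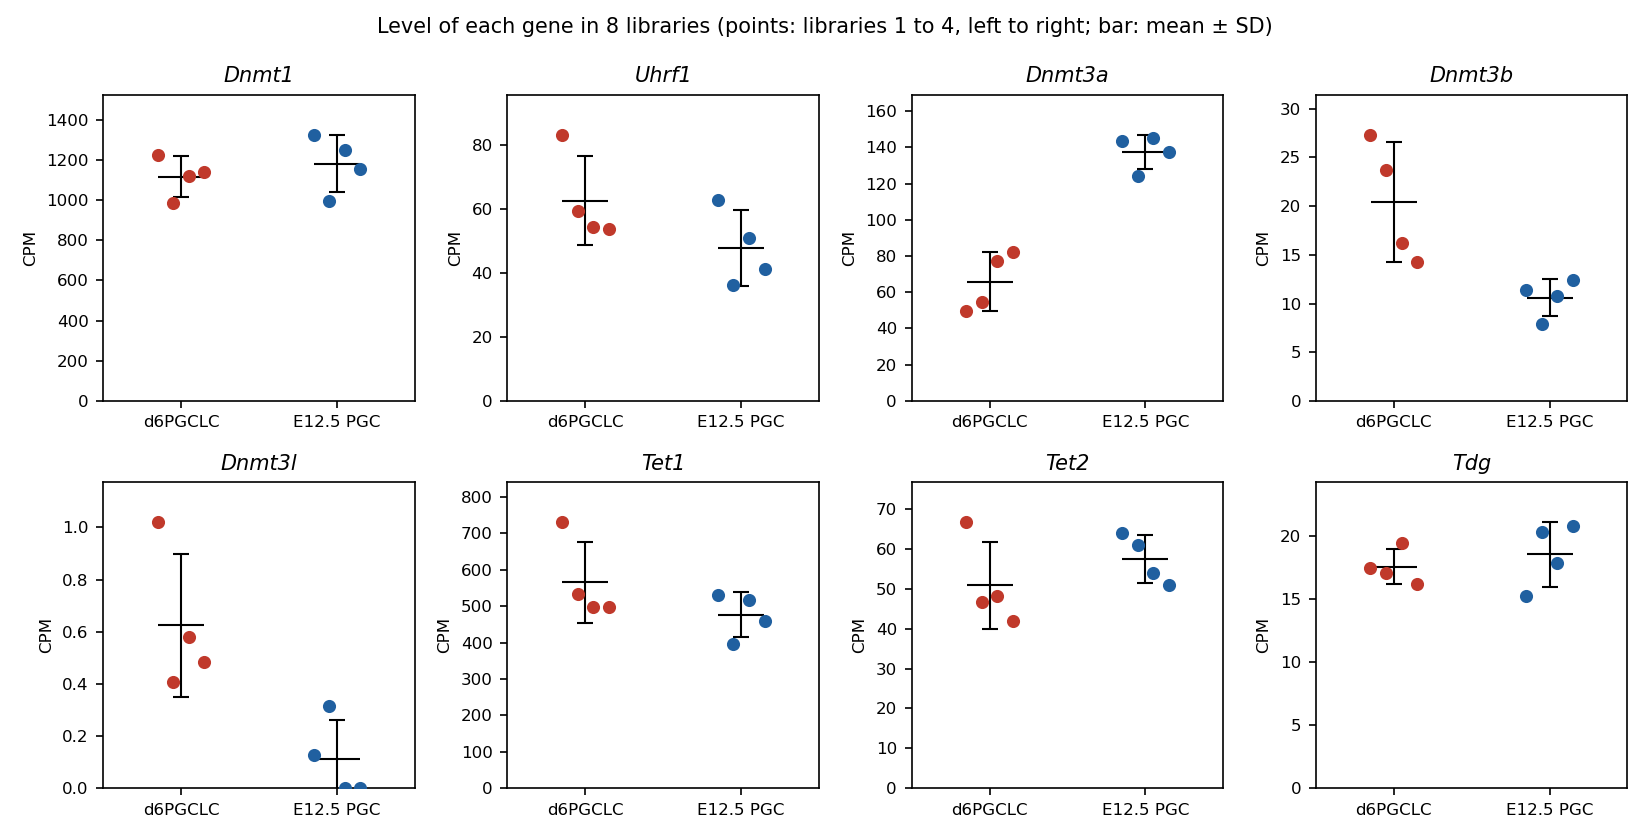
CPM of each of the 8 enzymes (one panel per gene, linear axis from 0) in d6PGCLC libraries (red) and E12.5 PGC libraries (blue), with the mean ± SD of 4 libraries in black. The groups separate for *Dnmt3a*, *Dnmt3b* and *Dnmt3l* and overlap for the other 5 genes.

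The maintenance methyltransferase gene *Dnmt1* had the highest transcript level of the enzymes measured in both groups. *Dnmt1* (Entrez 13433, chr9:20907206-20959888, GRCm38) stood at 1226, 983, 1121 and 1137 CPM in d6PGCLC replicates 1 to 4 and at 1324, 995, 1249 and 1154 CPM in E12.5 PGC replicates 1 to 4. The ranges overlapped, and E12.5 PGC replicates 1 and 3 lay above all d6PGCLC libraries. The means were 1117 ± 100.3 and 1181 ± 142 CPM (SD, n = 4 each), a log2 fold change of -0.08 ± 0.10 (SE) with an adjusted p of 0.659 from edgeR, and -0.15 to -0.02 with each library left out.

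*Uhrf1* (Entrez 18140, chr17:56303337-56323486), whose product reads hemimethylated CpG and recruits DNMT1, stood at 83.1, 59.2, 54.3 and 53.6 CPM in d6PGCLCs and at 62.9, 36.1, 51.0 and 41.2 CPM in E12.5 PGCs. The 2 highest values of all 8 belonged to replicate 1 of either group, and the groups overlapped. The means were 62.6 ± 13.9 and 47.8 ± 11.8 CPM, and the log2 fold change of 0.39 ± 0.16 was not called by edgeR (adjusted p = 0.0713). This value depended on single libraries. It was called without E12.5 PGC replicate 1 (0.55, adjusted p = 0.00839) and without d6PGCLC replicate 4 (0.46, adjusted p = 0.0432), and it was 0.23 without d6PGCLC replicate 1 (adjusted p = 0.253). *Uhrf1* was also called with the replicate number as a block (0.39, edgeR adjusted p = 0.00329), a pairing not taken as part of the design.

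*Dnmt3a* (Entrez 13435, chr12:3801559-3914443), a de novo methyltransferase, fell in d6PGCLCs relative to E12.5 PGCs. It stood at 49.4, 54.5, 77.5 and 82.1 CPM in d6PGCLC replicates 1 to 4 and at 143, 124, 145 and 137 CPM in the E12.5 PGC replicates. Each d6PGCLC library lay below each E12.5 PGC library, and d6PGCLC replicates 1 and 2 lay below replicates 3 and 4. The means were 65.9 ± 16.3 and 137 ± 9.39 CPM, a 2.08-fold lower level (log2 fold change -1.06 ± 0.13, edgeR adjusted p = 1.67e-06), and -1.18 to -0.95 with each library left out.

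*Dnmt3b* (Entrez 13436, chr2:153649411-153687730), the other de novo methyltransferase, moved the other way. It stood at 27.3, 23.7, 16.2 and 14.3 CPM in d6PGCLCs and at 11.4, 7.89, 10.8 and 12.4 CPM in E12.5 PGCs. The groups were separated, though d6PGCLC replicate 4 was close to E12.5 PGC replicate 4. The means were 20.4 ± 6.16 and 10.6 ± 1.92 CPM, 1.91-fold higher in d6PGCLCs (log2 fold change 0.94 ± 0.20, edgeR adjusted p = 0.000879), with 0.77 to 1.07 when each library was left out. Its 4 d6PGCLC libraries had the reverse order of those of *Dnmt3a* for replicates 1 and 2 against 3 and 4.

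*Dnmt3l* (Entrez 54427, chr10:78042287-78063622), a cofactor that stimulates DNMT3A and DNMT3B, was near the limit of detection. It gave 8, 4, 7 and 4 counts in d6PGCLC libraries and 1, 3, 0 and 0 counts in E12.5 PGC libraries, the latter all at or below the floor of 3 counts. In CPM this was 1.02, 0.407, 0.581 and 0.485 against 0.1248, 0.316, 0 and 0. Summed over libraries, 23 counts against 4 gave a ratio per depth of 5.97 with an exact 95% interval of 2.04 to 23.8, which covers counting error only. edgeR called it (adjusted p = 0.0231), with a fitted log2 fold change of 2.44 that rests on these few counts. The value was 2.55 with DESeq2 and 1.40 in edgeR with a prior count of 2, so its size also depends on the prior count. The call was lost without d6PGCLC replicate 1 (log2 fold change 2.14, adjusted p = 0.0673), without E12.5 PGC replicate 3 (2.02, adjusted p = 0.0823) and without E12.5 PGC replicate 4 (2.01, adjusted p = 0.0768), and the fitted log2 value was 3.75 without E12.5 PGC replicate 2 (adjusted p = 0.00626).

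**Figure D2:**
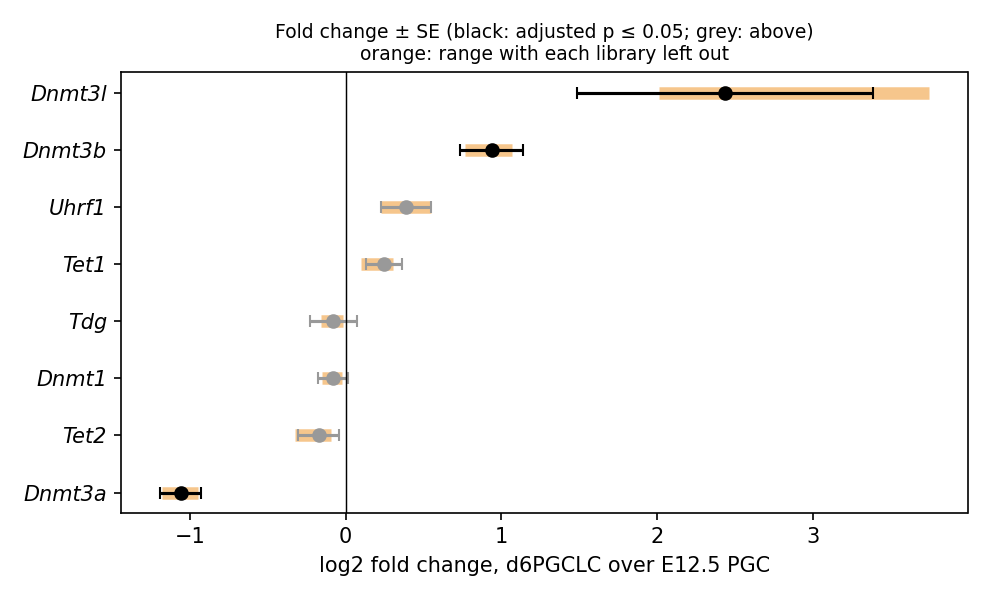
Log2 fold change of each enzyme (horizontal axis, d6PGCLC over E12.5 PGC) with its SE, black where the adjusted p is at most 0.05 and grey otherwise, and in orange the range obtained when each library is left out. *Dnmt3a* lies at -1.06, *Dnmt3b* at 0.94 and *Dnmt3l* at 2.44 with the widest range, while the other 5 genes lie between -0.17 and 0.39.

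The demethylation genes *Tet1*, *Tet2* and *Tdg* did not pass the threshold. *Tet1* (Entrez 52463, chr10:62804570-62887469) stood at 732, 532, 499 and 499 CPM in d6PGCLCs and at 531, 395, 518 and 460 CPM in E12.5 PGCs. A single library, d6PGCLC replicate 1, lay well above the rest, and the other values overlapped. The means were 565 ± 112 and 476 ± 62.1 CPM (log2 fold change 0.25 ± 0.12, edgeR adjusted p = 0.126), and the fold change was 0.10 without d6PGCLC replicate 1 (adjusted p = 0.531). With 14426 bases *Tet1* had the longest counted transcript of the set, and libraries differed in how their counts moved with transcript length. The slope of log2 deviation per log10 of length was 0.16 in d6PGCLC replicate 1 and 0.31 in E12.5 PGC replicate 1, and ran from -0.31 to 0.11 in the other 6 libraries. With this trend fitted as an offset *Tet1* was called higher in d6PGCLCs (0.50, adjusted p = 3.27e-05), and *Dnmt3a* was -0.88. *Tet1* was also called with the replicate number as a block (0.24, edgeR adjusted p = 0.0132), a pairing not taken as part of the design.

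*Tet2* (Entrez 214133, chr3:133463677-133545136), which lacks the CXXC DNA-binding domain of *Tet1*, stood at 66.9, 46.8, 48.4 and 41.9 CPM in d6PGCLCs and at 64.0, 61.0, 54.0 and 50.9 CPM in E12.5 PGCs. Replicate 1 was again the highest d6PGCLC library, and the other d6PGCLC libraries lay below all E12.5 PGC libraries. The means were 51.0 ± 10.9 and 57.5 ± 6.06 CPM (log2 fold change -0.17 ± 0.13, edgeR adjusted p = 0.414). Without d6PGCLC replicate 1 the value was -0.33 and was called (adjusted p = 0.0281).

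*Tdg* (Entrez 21665, chr10:82629814-82650799), which excises the oxidised bases, had the lowest SD relative to its mean of the 8 enzymes in d6PGCLCs, at 17.5, 17.1, 19.5 and 16.2 CPM, and stood at 15.2, 20.3, 17.9 and 20.9 CPM in E12.5 PGCs. The ranges overlapped, and the log2 fold change was -0.08 ± 0.15 (edgeR adjusted p = 0.895).

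To compare genes with each other, CPM were divided by counted length in kilobases (RPKM). On this scale *Dnmt1* led in both groups, at 160.7 ± 14.4 RPKM in d6PGCLCs and 169.8 ± 20.4 RPKM in E12.5 PGCs, above 98.4% and 98.6% of all genes in the table. *Tet1* came next, at 39.2 ± 7.76 and 33.0 ± 4.31 RPKM. In d6PGCLCs *Uhrf1* followed at 15.3 ± 3.41 RPKM, then *Dnmt3a* (6.21 ± 1.54), *Tet2* (5.27 ± 1.13), *Tdg* (4.997 ± 0.392) and *Dnmt3b* (4.05 ± 1.22), where each of the last 4 overlapped its neighbour in the order. In E12.5 PGCs *Dnmt3a* (13.0 ± 0.885 RPKM) and *Uhrf1* (11.7 ± 2.89) shared the rank after *Tet1* with overlapping libraries. *Tet2* (5.94 ± 0.626) and *Tdg* (5.28 ± 0.732) also overlapped, and *Dnmt3b* (2.11 ± 0.382) lay below them. *Dnmt3l* was last in both groups, at 0.409 ± 0.180 RPKM and 0.0722 ± 0.0977 RPKM.

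**Figure D3:**
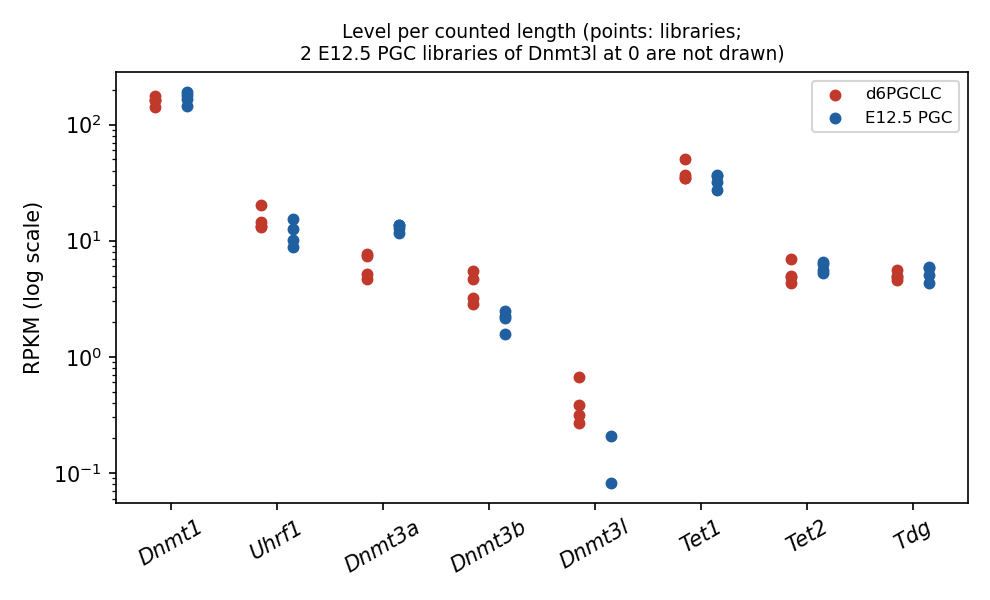
RPKM on a log axis for each enzyme in d6PGCLC (red) and E12.5 PGC (blue) libraries, 1 point per library, with the 2 libraries at 0 for *Dnmt3l* not drawn. *Dnmt1* lies near 160.7 and 169.8 RPKM on average, and *Dnmt3a* and *Dnmt3b* are closer together in d6PGCLCs than in E12.5 PGCs.

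As a share of the summed RPKM of the catalytic methyltransferases, *Dnmt1* took 94.0% ± 0.457 in d6PGCLCs and 91.8% ± 0.402 in E12.5 PGCs (SD, n = 4 each). *Dnmt3a* took 3.65% ± 0.892 and 7.04% ± 0.387, and *Dnmt3b* 2.38% ± 0.740 and 1.14% ± 0.152. The shares of each of these genes did not overlap between the groups.

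The balance between pairs was taken within each library as a log2 ratio of RPKM, and is given as a description without a test. The ratio of *Dnmt3b* to *Dnmt3a* was 0.22, -0.12, -1.18 and -1.44 in d6PGCLC replicates 1 to 4, against -2.58, -2.90, -2.67 and -2.40 in E12.5 PGCs. Thus per counted length the genes were near parity in d6PGCLC replicates 1 and 2, and *Dnmt3a* led in the other 6 libraries. This parity rests on the counted lengths of 10609 bases for *Dnmt3a* and 5029 bases for *Dnmt3b*. In CPM *Dnmt3a* led in replicates 1 and 2 as well (49.4 against 27.3 and 54.5 against 23.7). The group means of -0.63 ± 0.81 and -2.64 ± 0.21 differed by 2.01, with no overlap. De novo over maintenance transcripts (*Dnmt3a* plus *Dnmt3b* to *Dnmt1*) stood at -3.97 ± 0.12 in d6PGCLCs and -3.49 ± 0.08 in E12.5 PGCs, a difference of -0.47 with no overlap. The ratio of *Uhrf1* to *Dnmt1* was -3.41 ± 0.25 and -3.88 ± 0.19, with overlapping libraries. *Tet1* to *Tet2* was 2.90 ± 0.09 in d6PGCLCs and 2.47 ± 0.25 in E12.5 PGCs without overlap, although neither gene was called by itself.

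**Figure D4:**
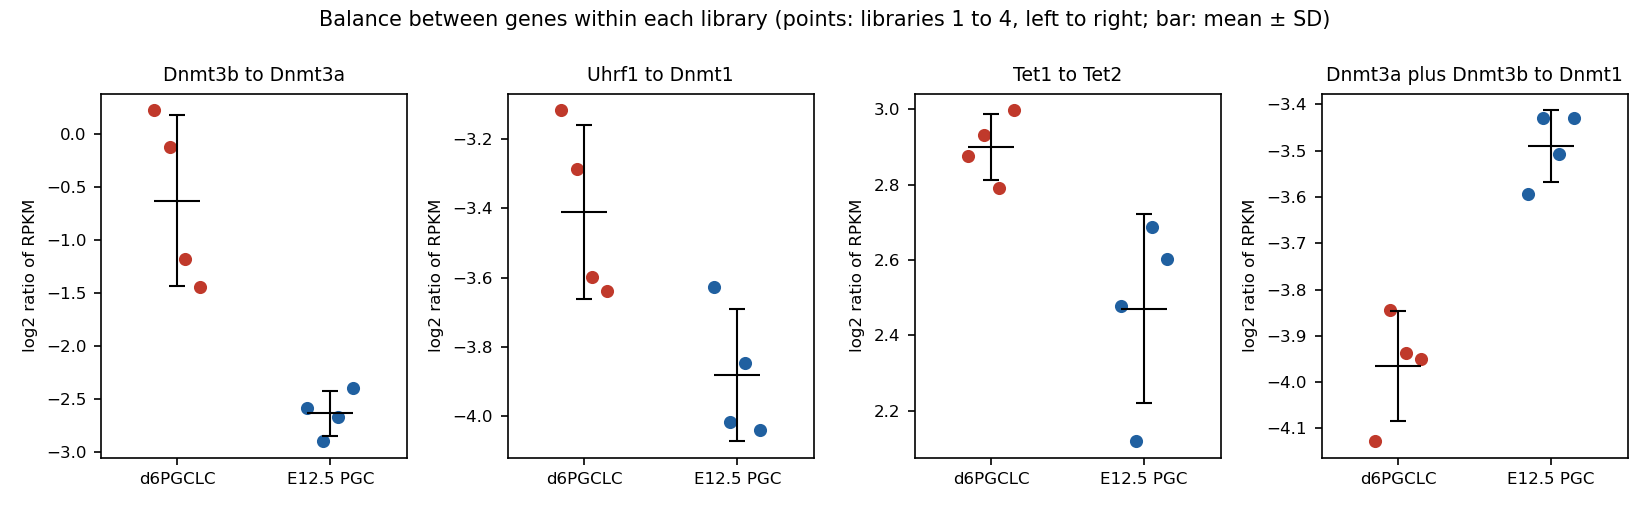
Log2 ratio of RPKM within each library for 4 pairs of genes, with points for d6PGCLC (red) and E12.5 PGC (blue) libraries 1 to 4 from left to right and the mean ± SD in black. The *Dnmt3b* to *Dnmt3a* ratio runs from -1.44 to 0.22 in d6PGCLCs and from -2.90 to -2.40 in E12.5 PGCs.

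The partners of these enzymes were read from lists chosen by function. The counts called in each list stand beside 31.5% of all genes (16.1% higher, 15.4% lower) and 53.6% of genes with a mean of 1 CPM or more (28.1% higher, 25.6% lower). *Zfp57*, *Zbtb4*, *Slc23a1*, *Cxxc4*, *Neil1*, *Neil2*, *Apobec1*, *Gnmt* and *Bhmt* averaged too few counts for the naming rule and were added after their values were seen. Of 14 measured targeting and maintenance cofactors, 3 rose and 5 fell in d6PGCLCs, with a median log2 fold change of -0.06. The 8 of 14 called were near the 53.6% of genes with a mean of 1 CPM or more. *Hells* (LSH), a chromatin remodeller needed for normal DNA methylation, stood at 292 to 302 CPM in d6PGCLCs and 541 to 830 CPM in E12.5 PGCs (log2 fold change -1.24, edgeR adjusted p = 5.88e-09). *Dppa3* (STELLA), which hinders UHRF1 from binding chromatin, was higher in d6PGCLCs at 691 ± 118 against 384 ± 42.5 CPM (0.85, adjusted p = 3.50e-06). A reporter of this gene may have been part of the sort of d6PGCLCs. *Kdm1b*, a histone H3K4 demethylase used in oocyte imprint establishment, was lower (-0.76, adjusted p = 6.90e-06), as was *Cxxc1*, which binds unmethylated CpG (-0.73, adjusted p = 2.01e-06). *Zfp57*, which protects imprints, was higher at 3.94 against 1.85 CPM (1.09, adjusted p = 0.0139, and 0.0630 without E12.5 PGC replicate 4).

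Among 7 readers of methylated CpG, 2 rose and 3 fell, with a median of 0.03. *Zbtb38* fell from 45.1 to 58.8 CPM in E12.5 PGCs to 17.2 to 26.4 CPM in d6PGCLCs (-1.31, edgeR adjusted p = 2.67e-07), and *Zbtb33* (Kaiso) changed by -0.81 (adjusted p = 3.27e-05). *Mbd1* was also lower (-0.47, adjusted p = 0.00193). *Zbtb4* was higher, at 4.26 against 1.22 CPM (1.78, adjusted p = 4.92e-05). *Mbd2* was higher by 0.41 with an adjusted p of 0.0417, which reached 0.159 among the alternatives.

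Of 9 genes for TET partners and cosubstrates, 5 rose and 2 fell, with a median of 0.54, beside 28.1% higher and 25.6% lower among genes with a mean of 1 CPM or more. *Ogt*, the O-GlcNAc transferase that binds TET proteins, was higher at 447 to 538 CPM in d6PGCLCs than in E12.5 PGCs at 261 to 317 CPM (0.80, edgeR adjusted p = 3.58e-07). *Idh2* and *Idh1*, which make the TET cosubstrate 2-oxoglutarate, rose by 0.80 (adjusted p = 3.31e-07) and 0.59 (adjusted p = 0.000167). *Slc23a2*, a vitamin C transporter, fell by 0.60 on the log2 scale (adjusted p = 0.0101). The other vitamin C transporter of the list, *Slc23a1*, moved the other way, at 9.98 against 0.921 CPM (log2 fold change 3.43, edgeR adjusted p = 1.37e-09). *Cxxc4*, whose product binds TET2, was at 0.0303 against 0.683 CPM (adjusted p = 0.000864).

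The base excision repair list had 11 of its 16 genes in the table, of which 4 rose and 2 fell, with a median of 0.16. The largest changes were in the DNA glycosylase genes *Neil2*, at 4.97 against 0.404 CPM (3.57, edgeR adjusted p = 1.53e-07), and *Neil1*, at 10.5 against 2.87 CPM (1.87, adjusted p = 3.16e-07), both higher in d6PGCLCs. *Parp2* was higher (0.64, edgeR adjusted p = 0.000308) and the flap endonuclease gene *Fen1* lower (-0.47, adjusted p = 0.000324) in d6PGCLCs. *Smug1* (0.34, adjusted p = 0.0294) and *Parp1* (-0.27, adjusted p = 0.0222) were called, but their adjusted p reached 0.115 and 0.0783 among the alternatives.

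Of 7 cytidine deaminase and *Gadd45* genes, 3 rose and the other 4 were not called, with a median of -0.02, or 0.31 without genes at the limit of detection in both groups. *Apobec3*, an antiviral deaminase, stood at 34.3, 27.9, 19.2 and 15.6 CPM in d6PGCLCs against 3.05 to 3.96 CPM in E12.5 PGCs (2.80, edgeR adjusted p = 4.21e-09). *Apobec1*, an RNA-editing deaminase, was at 6.15 against 1.03 CPM (2.54, adjusted p = 4.87e-06). *Gadd45a*, a stress-induced gene, was higher by 0.64 (adjusted p = 0.00239).

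Of 10 measured genes of the S-adenosylmethionine cycle, which supplies the methyl group, 2 rose and 3 fell (median -0.15, or -0.10 without genes at the limit of detection in both groups and with those at the limit in 1 group set to their bound). *Mtr*, methionine synthase, changed by -0.77 (edgeR adjusted p = 5.98e-05). *Ahcyl1* was called at 0.36 (adjusted p = 0.0395), with an adjusted p of up to 0.192 among the alternatives. *Gnmt*, a methyltransferase that uses up S-adenosylmethionine, was at 1.41 against 0.330 CPM (adjusted p = 0.00207), and *Bhmt*, which remakes methionine from betaine, was at 0 against 0.344 CPM with overlapping libraries (adjusted p = 0.0130, and 0.0522 without E12.5 PGC replicate 2). *Mat1a*, the liver form of methionine adenosyltransferase, was at most at 3 counts in every library.

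Germline genes with promoters that are methylated in somatic cells are known readouts of demethylation in PGCs. Of 15 such genes, 12 were lower in d6PGCLCs and the other 3 were not called, with a median of -2.58, or -2.71 without *Dpep3*, which had at most 3 counts in every library, beside the 15.4% of all genes called lower. *Dazl*, an RNA-binding protein of germ cells, stood at 50.5, 63.9, 17.8 and 18.5 CPM in d6PGCLCs against 1018 to 1580 CPM in E12.5 PGCs (-5.07, edgeR adjusted p = 2.45e-11). *Ddx4*, the VASA helicase, changed by -4.42 (adjusted p = 1.29e-15) and *Hormad1*, a meiotic chromosome axis protein, by -4.01 (adjusted p = 4.69e-13). *Asz1*, of the piRNA pathway, stood at 6.25, 14.5, 2.82 and 2.18 CPM against 86.2 to 108 CPM (-3.91, adjusted p = 3.09e-09). DNA methylation itself was not measured in these libraries, so these values do not show a difference in methylation. The earlier stage to which the paper likens d6PGCLCs follows the division of the groups, and its part was not tested. In bulk RNA, fewer cells expressing a gene and less RNA per cell cannot be told apart, and gonadal somatic markers were higher in E12.5 PGCs (0.664 to 1.45 CPM against 2.80 to 7.58 CPM), whose part in these differences was not tested.

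*Dnmt1* and *Uhrf1* are known to rise with DNA replication, and the S phase list is given beside them. Of its 13 measured genes 2 rose and 5 fell, with a median of -0.10, and the 7 of 13 called were near the 53.6% of genes with a mean of 1 CPM or more. *Rrm2*, a ribonucleotide reductase subunit, was higher in d6PGCLCs (0.93, edgeR adjusted p = 3.65e-08), whereas *Slbp*, the histone mRNA binding protein, was lower (-0.56, adjusted p = 3.56e-05). The replicative helicase genes *Mcm3* (-0.38, adjusted p = 0.00110) and *Mcm2* (-0.35, adjusted p = 0.00157) were lower too. The genes of this list did not share a direction, and their part in the values of *Dnmt1* and *Uhrf1* was not tested.

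**Figure D5:**
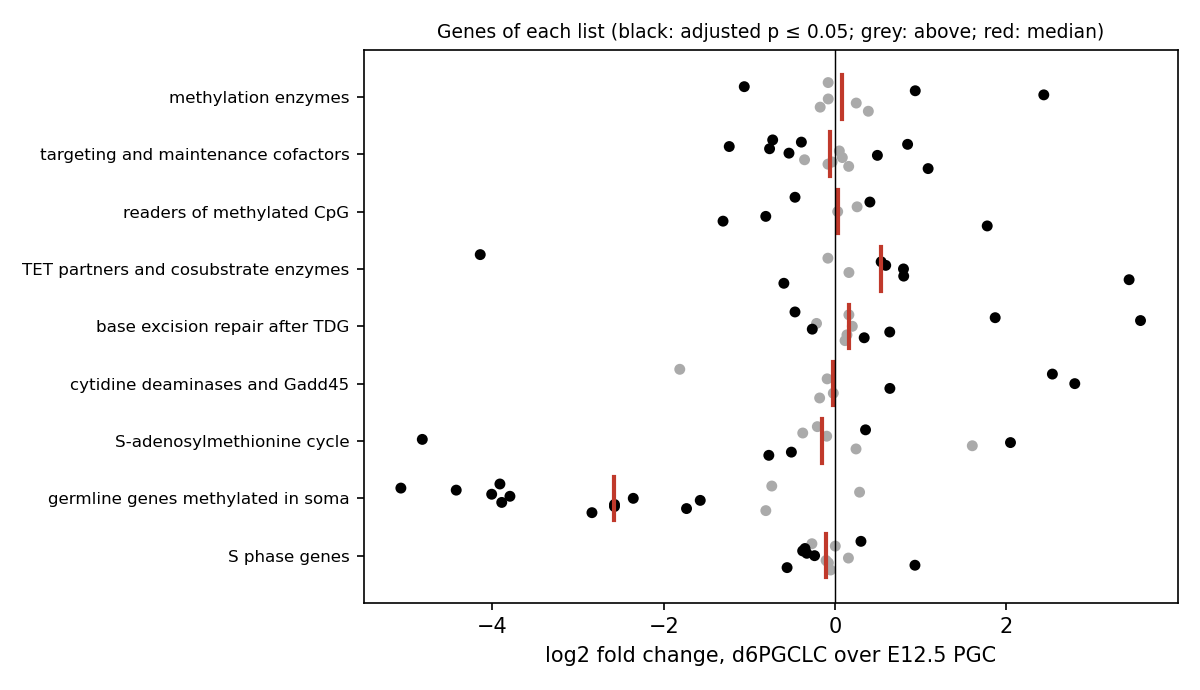
Log2 fold change (d6PGCLC over E12.5 PGC) of every measured gene of the enzyme set and of 8 lists, black where the adjusted p is at most 0.05 and grey otherwise, with the list median in red. The enzymes have a median of 0.08, and the germline list stands apart at -2.58; fitted values of genes at the limit of detection depend on the prior count.

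Genes with the profile most like that of *Dnmt3a* and *Dnmt3l* over the 8 libraries were ranked by the root mean square difference of centred log2(CPM + 0.1) values. Nearest to *Dnmt3a*, among 9289 other genes with a mean of at least 5 CPM, were *Prkag2* (0.0700), *Npnt* (0.0937) and *2700081O15Rik* (0.0971). *Prkag2* averaged 25.1 ± 7.05 CPM over d6PGCLC libraries and 54.4 ± 3.89 CPM over E12.5 PGC libraries. Nearest to *Dnmt3l*, among 9290 genes, were *Ppp1r3b* (0.388), *Slco4a1* (0.395) and *Maff* (0.410), at a greater distance than those of *Dnmt3a*. Since *Dnmt3l* had 3 counts or fewer in each E12.5 PGC library, its profile and this ranking are set largely by the pseudocount of 0.1 CPM. *Maff* averaged 35.6 ± 7.38 CPM over d6PGCLC libraries and 8.86 ± 2.70 CPM over E12.5 PGC libraries.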

How the data were processed

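RNA of 8 libraries was sequenced single-end after a stranded mRNA preparation. The authors aligned reads with STAR to GRCm38 with ERCC spike-in sequences added, picked an isoform at random for each UCSC known gene, dropped members of promoter-overlapping gene pairs at random, and with QuasR made the deposited counts, which are raw and hold only reads with a unique position, beside the counted length in bases. Whether counting used strand is not given in the sources used here, so reads of overlapping or antisense genes may be shared. The deposited length equalled a GENCODE M21 transcript plus 40 bases per exon for 5175 of 21324 matched genes. Identifiers were matched to RefSeq GRCm38.p6 symbols for 21907 of 21950 genes.

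Library sizes were scaled by TMM, and the quasi-likelihood model of edgeR 4.0.16 in R 4.3.3 was fitted to the counts (glmQLFit and glmQLFTest, prior count 0.125, no filter), with cell type as the only term and all 8 libraries. p-values were adjusted by Benjamini-Hochberg over all 21950 genes, and calls were made at an adjusted p of at most 0.05. CPM used TMM-scaled library sizes, and RPKM are CPM per kilobase of counted length. The limit of detection was set at 3 counts per library. Intervals and limits cover counting error only. On simulated data 200 of 200 changed genes were called in the right direction, and 19 of 21750 unchanged genes were called. The changed genes were drawn from well-counted genes and given log2 changes of 1 or 2 in size. Their dispersions were those edgeR estimated from these data. The simulation therefore gives no sensitivity for smaller changes or for genes of few counts such as *Dnmt3l*. Replicate libraries differed by more than sampling noise (3.19 to 20.8 as chi-square divided by its degrees of freedom).

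Other settings tried were DESeq2 1.42.0, a likelihood ratio test, library size, DESeq2 size factors and upper quartile scaling, CPM above 1 in at least 3 libraries, filterByExpr, a prior count of 2, a length offset, the replicate block, and leaving out each library. The genes named were all enzymes of the set, up to 4 called genes per list with the largest changes among those averaging 100 counts or more, list genes with at most 3 counts in every library, and 3 genes of the most similar profile for the called enzymes with the largest rise and fall (centred log2(CPM + 0.1)). The enzymes and lists were chosen with earlier results of these data known. Some genes that this rule names are not reported here.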

Additional observations from a re-analysis of the deposited data

Results flagged for a closer look

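*Tet1* in d6PGCLC replicate 1 stood at 732 CPM, far from the other 3 d6PGCLC libraries at 499 to 532 CPM. *Zbtb33*, a reader of methylated CpG, stood at 24.0 CPM in d6PGCLC replicate 2, below the others at 32.3 to 33.1 CPM. *Parp1*, of base excision repair, stood at 2084 CPM in E12.5 PGC replicate 2, below the others at 2400 to 2416 CPM. Each gap to the nearest library exceeded Dixon's 95% critical value for a group of 4. Of 82 sets of 4 libraries examined 3 were singled out, where chance gives about 1 in 20, or 4.1.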

How the results depend on the processing

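The 8 enzymes kept their direction in all 142 settings in which a value could be had. They kept their side of the threshold in 133, fell short of it in 3 (all *Dnmt3l*) and passed it in 6. List genes named by the rule kept both in 489 of 522 and fell short in 33. The 9 list genes added outside the rule kept both in 155 of 157 and fell short in 2. *Dnmt3l* has no value under either filter on low counts, which leave 1 enzyme called higher, 1 called with a log2 change of 1 or more in size and 0 with one of 2 or more. A prior count of 2 also left 0 with 2 or more, and the length offset left 1 with 1 or more. With each library left out, 2 to 4 enzymes were called, 1 to 3 higher and 1 to 2 lower, 0 to 3 with a log2 change of 1 or more in size and 0 to 1 with one of 2 or more. The count of 1 or more, 2 with all libraries, was 0 without d6PGCLC replicate 1, 1 without d6PGCLC replicate 2 or E12.5 PGC replicate 3, and 3 without d6PGCLC replicate 3 or 4. All genes called then ranged from 5978 to 7066, and list genes from 45 to 54. The ratio of *Dnmt3a* plus *Dnmt3b* to *Dnmt1* differed by -0.71 with CPM in place of RPKM and by -0.52 to -0.42 with a library left out. Other ratio differences ranged from 1.72 to 2.28 (*Dnmt3b* to *Dnmt3a*), 0.31 to 0.50 (*Tet1* to *Tet2*) and 0.38 to 0.56 (*Uhrf1* to *Dnmt1*).

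Replicate numbers were not taken to pair the libraries, since same-numbered libraries correlated at 0.393, 0.160, -0.0927 and 0.0795 across genes, and not every library correlated best with its own number. With the replicate block 5 enzymes were called, 4 of them higher, adding *Uhrf1* (0.39, adjusted p = 0.00329) and *Tet1* (0.24, adjusted p = 0.0132). At this depth a gene of a few counts such as *Dnmt3l* gives no firm fold.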

Other observations

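Several list genes named above differed between d6PGCLC replicates 1 and 2 and replicates 3 and 4, as did *Dnmt3a* and *Dnmt3b*. *Dazl* was at 50.5 and 63.9 CPM in d6PGCLC replicates 1 and 2 and at 17.8 and 18.5 CPM in replicates 3 and 4, and *Apobec3* at 34.3, 27.9, 19.2 and 15.6 CPM. *Dnmt3b* was highest and *Dnmt3a* lowest in replicates 1 and 2. The labels give no grouping of these libraries, so these are values without a test.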
